A study of Mus musculus with 33 samples.

Results

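Liver tumours of E2f1 knock-in mice (1KI, n = 5) were set against livers of E2f3a knock-out mice (3aKO, n = 5) across 18193 genes, with wild-type livers (wt, n = 7) placed beside them for every gene. The 10 arrays of the comparison were the columns titled 1KI and 3aKO in normalization 1, out of 33 columns in the table. The labels give the 1KI genotype as E2F1 knock-in and describe these samples as hepatocellular carcinoma that arose spontaneously, whereas the 3aKO and wt livers are described as normal. Every animal was aged 12 months and had a background mixed from FVB/NT, 129S1/Svlmj and C57BL/6NT, and none had a treatment. Biotin-labelled cRNA from 5 ug of total RNA was hybridised to Affymetrix arrays. No 3aKO tumour and no 1KI normal liver is among these columns, so genotype and tumour status cannot be told apart. The locus, zygosity and promoter of the knock-in are not given in the sources used here, nor whether replicates came from separate animals, and the p values then measure only the spread between these samples.

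E2F proteins are transcription factors that bind promoters of genes for DNA replication and mitosis, mostly as dimers with a DP partner. The retinoblastoma protein and its relatives hold them in check in resting cells. E2f1 is also known for raising p53 activity and cell death when it is overactive. The E2f3 gene gives the proteins E2f3a and E2f3b from separate promoters, and E2f3a is classed as an activator. Hepatocytes of an adult liver rarely divide, and hepatocellular carcinoma is the cancer that forms from them.

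Most measured genes of the interferon response and most targets of p53 had higher means in the 1KI tumours than in the 3aKO livers. So had most markers of the fetal liver or of hepatocellular carcinoma, and the AP-1 subunit Jun. Genes of amino acid breakdown, fatty acid oxidation, bile acid handling and drug metabolism had lower mean values in the tumours. Many genes named below were picked because their groups did not overlap, so that trait was fixed by the choice. In all 5 tumours, 12 of 37 interferon, 6 of 28 p53 and 7 of 27 fetal or carcinoma marker genes lay above every 3aKO liver. Over all genes this share was 1.45%. Most of the fetal or carcinoma markers and metabolic genes named differed most in 2 tumours, 1KI replicates 3 and 4. No gene passed limma's test at an adjusted p under 0.05 in the fit on the 5 and 5 arrays, neither higher (0% of genes) nor lower (0%), and the smallest adjusted p was 0.0603. At an unadjusted p under 0.05, 1092 genes (6.00%) were higher and 1458 (8.01%) were lower. In the fit that also used wt to estimate the spread, 37 genes (0.203%) were called higher and 20 (0.110%) lower for the same contrast. Of those 57 genes, 55 had no overlap between the 5 tumours and the 5 livers. The exceptions were Krt8, a keratin of liver epithelium, and Tinag, both named after their values were seen.

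Genes are described below as separated where every 1KI array lay above, or every one below, all 5 of the 3aKO arrays. This held for 264 genes in the higher direction (1.45% of 18193) and 356 in the lower direction (1.96%). A difference of means of at least 1 on the log2 scale, which is 2-fold, was added for 63 of the higher (0.346%) and 26 of the lower genes (0.143%). All levels are log2 values, differences are 1KI minus 3aKO with their standard error (SE), and the median difference over all genes was -0.02. Adjusted p values are limma's with Benjamini-Hochberg adjustment over all genes, from the fit on the 2 groups unless another fit is named.

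The tumours did not form a uniform group. On the first principal component of the 17 arrays, with 32.25% of the variance, 1KI replicates 3 and 4 lay at 61.0 and 69.8 and the other 15 arrays lay between -17.0 and 5.08. The standard deviation was larger among 1KI than among 3aKO arrays for 11611 genes (63.8%). Sex, read from the sex-linked transcripts, was female for 2 and male for 3 tumours, including replicates 3 and 4, and female for 3 and male for 2 of the 3aKO livers. A sign of RNA quality, the log2 difference between the 3' and 5' actin controls, was 0.911 to 1.28 in the tumours and 1.09 to 1.35 in the 3aKO livers, with replicates 3 and 4 lowest among the tumours. With this difference as a covariate no gene was called, and 613 higher and 818 lower genes had an unadjusted p under 0.05. Without these 2 tumours, 20 genes (0.110%) were called higher and 3 (0.0165%) lower, and 10 of these 23 were also among the 57 called in the fit with all 3 groups. Medians of the main lists and differences of most genes described in full are therefore given with and without them.

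Interferon-response genes mostly had higher means in the tumours. Type I interferon and viral RNA switch on these genes, and their products sense or degrade viral RNA. Of the 37 list genes measured, 35 had a higher mean in 1KI tumours than in 3aKO livers, against 45.3% of all genes, 12 were separated and higher, and none was separated and lower. The fit with all 3 groups called 8 of them higher. The list's median difference was 0.59, and 0.50 without 1KI replicates 3 and 4.

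Ifi27, an interferon-induced mitochondrial protein, had the smallest p of all genes. Its levels were 11.75, 12.74, 12.16, 12.10 and 11.95 in the 1KI tumours and 9.52, 10.17, 10.36, 10.47 and 10.52 in the 3aKO livers. The lowest tumour lay more than 1 log2 unit above the highest 3aKO liver, and the mean was 3.82-fold higher (difference 1.93 ± 0.22, adjusted p = 0.0603). The call passed in the fit with all 3 groups (adjusted p = 0.00156) and without the 2 tumours that stood apart (difference 1.94 ± 0.27, adjusted p = 0.0478). The wt livers ranged from 9.76 to 10.87 with a median of 10.26, overlapping the 3aKO range.

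Oas1a makes the oligoadenylate signal that activates RNase L. It was measured at 8.49, 9.76, 9.70, 10.71 and 9.59 in 1KI tumours and at 7.36, 7.22, 7.74, 7.40 and 7.73 in 3aKO livers. Replicate 1 was the lowest tumour for Oas1a, and the groups did not overlap (difference 2.16 ± 0.32, 4.47-fold, adjusted p = 0.0788, and 0.0102 with all 3 groups). Without replicates 3 and 4 the Oas1a difference was 1.79 ± 0.27 (adjusted p = 0.0561). Usp18, which removes ISG15 and dampens interferon signalling, stood at 7.84, 9.15, 8.89, 9.91 and 9.01 in the tumours and 5.84, 6.28, 6.99, 6.31 and 7.55 in the 3aKO livers (difference 2.36 ± 0.39, adjusted p with all 3 groups = 0.0276). Oasl1, an OAS-like protein that restrains Irf7 translation in mice, was at 7.99, 8.80, 7.69, 8.46 and 8.40 in 1KI and 6.48, 6.27, 7.34, 6.15 and 6.08 in 3aKO (difference 1.81 ± 0.27, adjusted p with all 3 groups = 0.0176). Replicate 1 was the lowest tumour for Usp18 and replicate 3 for Oasl1, and neither gene overlapped between the groups. Without replicates 3 and 4 they differed by 2.07 ± 0.41 and 1.93 ± 0.29 (adjusted p = 0.132 and 0.0561).

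Ifi27l2b showed another shape. Its levels of 9.11, 9.40, 11.78, 11.42 and 9.24 in 1KI were highest in replicates 3 and 4, against 7.79, 7.55, 7.89, 7.59 and 7.70 in 3aKO, and the difference of 2.49 ± 0.51 became 1.55 ± 0.10 without those 2 tumours (adjusted p = 0.00207). Probe sets of close paralogs such as the Ifi27-like and Oas genes can take up each other's RNA. The other separated members, chosen after their values were seen, were Irf7, the master regulator of type I interferon genes (difference 1.77 ± 0.36), Ifi27l2a (1.59 ± 0.29), the translation inhibitor Ifit1 (1.58 ± 0.33), Oasl2 (1.25 ± 0.29), the RNA sensors Ifih1 (0.96 ± 0.19) and Ddx58 (0.44 ± 0.14), and the virion tether Bst2 (0.95 ± 0.15). Irf7, Ifih1 and Bst2 were called higher in the fit with all 3 groups (adjusted p = 0.0381, 0.0456 and 0.0443).

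The median difference of the interferon list from the 3aKO mean was 0.29, 0.72, 0.66, 1.33 and 0.73 in 1KI replicates 1 to 5. In 3aKO livers the same median reached 0.37 in replicate 5, and in wt it reached 0.61 in replicate 6, so the lowest tumour, replicate 1, lay within the range of the normal livers. Levels of immune-cell markers are given beside it, and their part was not tested: 3 of 16 T and NK cell markers and 5 of 19 macrophage markers had a higher mean in 1KI. The summed linear level of the T and NK markers was 1016 to 1462 in 1KI and 926 to 2132 in 3aKO, that of the macrophage markers was 7917 to 17596 in 1KI and 11112 to 22199 in 3aKO, and no array listed a marker at 0.

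The promoters of the interferon genes are shown because most list members were higher together. The interferon-stimulated response element was searched as GAAA, any 2 bases and GAAA on both strands, from 250 bases before to 50 bases after each gene start in the RefSeq table (GRCm38.p6). It was present for 5 of the 8 separated interferon genes with a promoter there (62.5%) and for 9 of 17 list genes that were not separated (52.9%), against 3.63% of the 14452 measured genes with a promoter there and 3.44% of all 32851 promoters. Matches are capital letters in the 150 bases before the start, printed 5′ to 3′ on the gene's strand.
Oas1a (chr5:120907526-120907675, minus strand): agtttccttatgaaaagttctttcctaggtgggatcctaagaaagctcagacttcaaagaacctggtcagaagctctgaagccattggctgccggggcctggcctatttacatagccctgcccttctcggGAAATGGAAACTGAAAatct
Ifit1 (chr19:34640739-34640888, plus strand): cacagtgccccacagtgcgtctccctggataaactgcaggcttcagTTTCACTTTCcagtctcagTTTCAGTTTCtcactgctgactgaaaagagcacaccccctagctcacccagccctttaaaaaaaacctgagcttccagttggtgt
Bst2 (chr8:71537473-71537622, minus strand): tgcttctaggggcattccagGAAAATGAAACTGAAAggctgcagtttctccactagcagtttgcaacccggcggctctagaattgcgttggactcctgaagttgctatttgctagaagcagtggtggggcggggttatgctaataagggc
Each of these promoters holds 2 matches. Those of Oas1a overlap, start 20 and 14 bases before the gene start and share a strand with it, whereas those of Ifit1 start 104 and 85 bases before it and read on the opposite strand. In Bst2 the matches overlap and start 130 and 124 bases before the gene start.

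**Figure D1:**
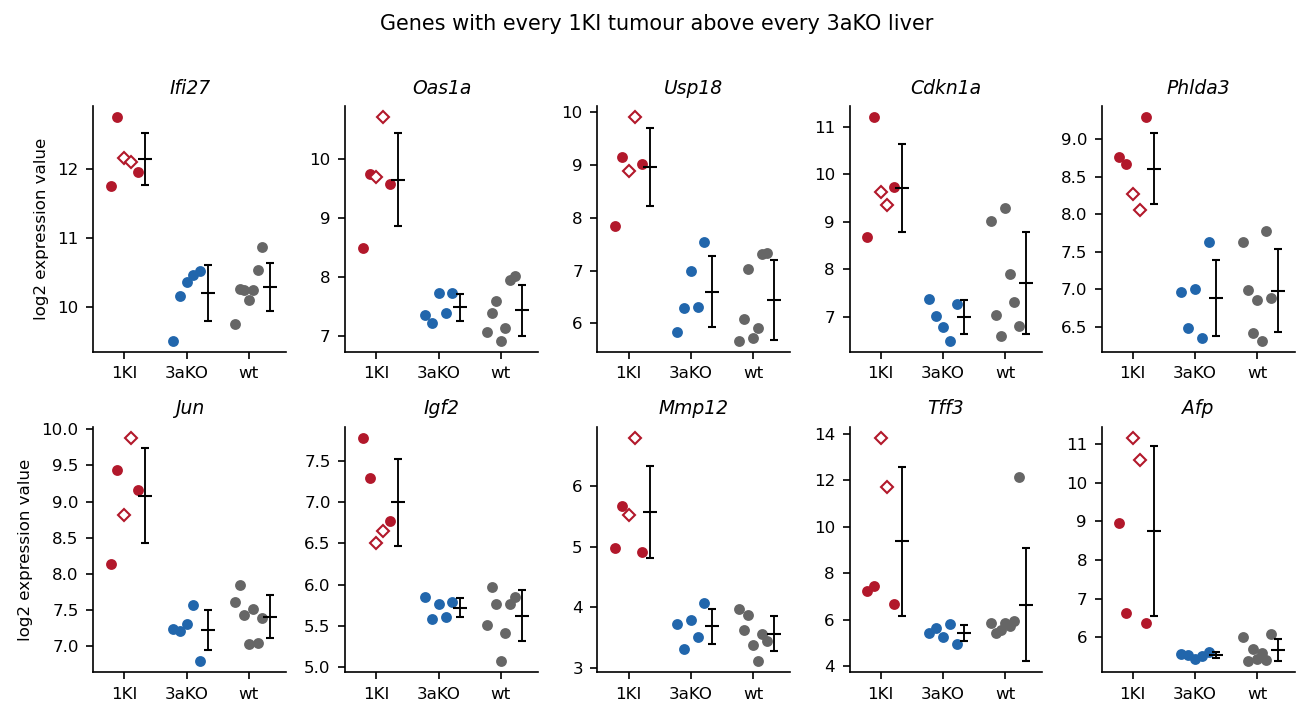
Log2 levels of 10 genes in each array, 1KI tumours (left), 3aKO livers (middle) and wt livers (right); dots are arrays, open diamonds are 1KI replicates 3 and 4, and black bars are mean ± SD. Tumours and 3aKO livers do not overlap for any of these genes, Ifi27, Oas1a and Jun are high in all 5 tumours, and Tff3 and Afp are highest in the diamonds.

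Targets of p53 were the next group. The tumour suppressor p53 answers DNA damage and oncogene activity by raising genes that stop the cell cycle or start cell death. Of 28 targets measured, 21 had a higher mean in 1KI tumours, 6 were separated and higher and none was separated and lower. In the fit with all 3 groups 5 were called higher. The list median was 0.27, and 0.22 without replicates 3 and 4. By tumour it was 0.20, 0.43, 0.26, 0.17 and 0.34, and it reached 0.23 in 3aKO replicate 5 and 0.10 in wt replicate 1. Tumour replicates 1 and 4 thus lay within the range of the normal livers.

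Cdkn1a encodes p21, the inhibitor of cyclin-dependent kinases through which p53 halts the cycle. It measured 8.68, 11.20, 9.62, 9.36 and 9.74 in 1KI tumours and 7.38, 7.02, 6.78, 6.50 and 7.27 in 3aKO livers. Replicate 2 was the highest tumour by over 1 log2 unit, and the lowest tumour still exceeded every 3aKO liver. The difference was 2.73 ± 0.39, or 6.63-fold (adjusted p = 0.0788, and 0.0381 with all 3 groups), and 2.88 ± 0.47 without replicates 3 and 4 (adjusted p = 0.0799). The wt livers spread from 6.60 to 9.29 with a median of 7.31, so the highest wt liver lay inside the tumour range.

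Phlda3, a repressor of Akt that p53 switches on, was at 8.75, 8.67, 8.27, 8.05 and 9.29 in 1KI and 6.96, 6.49, 7.01, 6.36 and 7.63 in 3aKO. Here the tumours 1, 2 and 5 were higher than 3 and 4, the reverse of the pattern of most fetal or carcinoma markers named. The Phlda3 difference of 1.72 ± 0.27 was 2.02 ± 0.28 without replicates 3 and 4 (adjusted p = 0.0478). Zmat3, an RNA-binding target of p53, showed 7.91, 8.16, 7.67, 7.70 and 8.25 in 1KI against 7.00, 7.07, 7.00, 7.17 and 7.43 in 3aKO, and was called higher both with all 3 groups (adjusted p = 0.0475) and without the 2 tumours (adjusted p = 0.0478). The kinase Plk2 was at 8.31, 8.83, 8.04, 8.22 and 8.71 in 1KI and 7.40, 7.62, 7.52, 7.92 and 7.91 in 3aKO (difference 0.75 ± 0.17, adjusted p with all 3 groups = 0.0453).

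Mdm2, Polk and Ccng1 were chosen after their values were seen. Mdm2, the ligase that destroys p53, had a difference of 0.63 ± 0.12 and passed without the 2 tumours (adjusted p = 0.0478). Polk, a translesion polymerase, had a difference of 0.74 ± 0.15 and passed with all 3 groups (adjusted p = 0.0337). Ccng1, cyclin G1, overlapped between groups, with 9.32 and 9.42 in replicates 3 and 4 against 8.79 to 9.53 in 3aKO, but passed without those tumours (difference 1.21 ± 0.17, adjusted p = 0.0488). In replicates 1, 2 and 5 Ccng1 was at 10.03, 10.18 and 10.38, above every 3aKO liver.

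Among immediate early genes, which answer growth and stress signals within minutes, Jun stood apart. Jun, a subunit of AP-1, was at 8.13, 9.43, 8.81, 9.88 and 9.16 in 1KI tumours and 7.23, 7.21, 7.30, 7.57 and 6.79 in 3aKO livers. All 5 tumours were higher than all 5 3aKO livers and all 7 wt livers, which spanned 7.03 to 7.84. The difference was 1.86 ± 0.28 (3.64-fold, adjusted p = 0.0788, and 0.00875 with all 3 groups), and 1.69 ± 0.28 without replicates 3 and 4 (adjusted p = 0.0811). Atf3, a stress-induced partner of Jun, was separated as well but rested on replicate 4, at 10.50 against 6.72 to 7.45 in the other tumours and 5.81 to 6.61 in 3aKO. Its difference of 1.54 ± 0.62 was 0.72 ± 0.20 without replicates 3 and 4, and it did not pass either fit (adjusted p = 0.321 and 0.309). Of the 23 genes of this list, 17 had a higher mean in 1KI, and the median of 0.27 was 0.02 without the 2 tumours.

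Markers of the fetal liver and of hepatocellular carcinoma gave some of the largest differences of the comparison. The fetal members of this list are silent or low in adult hepatocytes and return in liver cancer, and the others are listed as carcinoma markers. Of 27 measured, 21 had a higher mean in 1KI, 7 were separated and higher, and none was separated and lower. Their median difference was 0.88, the largest positive median of the 44 lists, and 0.37 without replicates 3 and 4. Only 1 member, Igf2, was called higher in the fit with all 3 groups.

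Tff3, a secreted trefoil peptide of mucous epithelia, had the largest difference of the separated genes when the probe set of highest mean stood for each gene. It measured 7.24, 7.44, 13.81, 11.72 and 6.69 in 1KI tumours and 5.45, 5.65, 5.27, 5.81 and 4.94 in 3aKO livers. Replicates 3 and 4 were far above the other tumours, which still exceeded every 3aKO liver. The difference of 3.95 ± 1.25 did not pass (adjusted p = 0.240), and without the 2 tumours a smaller one of 1.70 ± 0.22 did (adjusted p = 0.0478). A single wt liver was also high, since wt ranged from 5.41 to 12.12 with a median of 5.86.

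Bex1, a small brain-expressed X-linked protein, was at 5.19, 5.06, 11.73, 8.18 and 4.22 in 1KI and 3.21, 2.74, 3.03, 3.20 and 3.20 in 3aKO. It behaved like Tff3, with replicate 3 highest, a difference of 3.80 ± 1.21 (adjusted p = 0.243) and 1.75 ± 0.21 without the 2 tumours (adjusted p = 0.0478). Afp, the main serum protein of the fetal liver and the clinical marker of this cancer, was at 8.95, 6.64, 11.16, 10.59 and 6.37 in 1KI and 5.58, 5.56, 5.43, 5.53 and 5.63 in 3aKO. Replicates 1, 3 and 4 were high for Afp, and replicates 2 and 5 were closer to the 3aKO livers. The difference of 3.20 ± 0.86 (adjusted p = 0.213) was 1.78 ± 0.49 without replicates 3 and 4. The other probe sets for Afp, of lower mean, differed by 5.29 ± 0.85, 3.88 ± 0.92, 0.31 ± 0.10 and -0.23 ± 0.11. Golm1, a Golgi protein shed by liver tumours, was at 6.86, 7.49, 10.52, 10.60 and 7.42 in 1KI against 6.27, 6.31, 6.08, 6.06 and 6.42 in 3aKO, with no overlap and a difference of 2.35 ± 0.71 (adjusted p = 0.238) that was 1.03 ± 0.15 without the 2 tumours.

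Gpc3, a heparan sulphate proteoglycan that marks hepatocellular carcinoma, was high in the 2 tumours that stood apart. Its level was 11.53 and 8.59 in replicates 3 and 4, while the other 3 tumours were at 5.39, 5.15 and 5.16 and the 3aKO livers at 4.77 to 5.02. The difference of 2.30 ± 1.10 was 0.37 ± 0.09 without them. Anxa2, a calcium-dependent membrane binder, followed the same order, with 8.78, 9.48, 11.66, 12.21 and 9.09 in 1KI and 8.37, 8.33, 8.22, 8.33 and 8.50 in 3aKO, and its difference of 1.89 ± 0.62 was 0.76 ± 0.14 without replicates 3 and 4.

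Igf2, the fetal insulin-like growth factor, ran the other way. It measured 7.78, 7.29, 6.50, 6.65 and 6.77 in 1KI tumours and 5.85, 5.58, 5.77, 5.61 and 5.79 in 3aKO livers. Replicates 1 and 2 were highest and replicates 3 and 4 lowest among the tumours, and the groups stayed apart. The difference was 1.28 ± 0.22 (adjusted p = 0.0788, and 0.0181 with all 3 groups), and 1.56 ± 0.19 without replicates 3 and 4 (adjusted p = 0.0478).

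Other separated genes with large positive differences included Mmp12, the macrophage metalloelastase, which was at 4.98, 5.68, 5.52, 6.79 and 4.92 in 1KI and 3.73, 3.31, 3.79, 3.51 and 4.07 in 3aKO. It was called higher with all 3 groups (adjusted p = 0.0124) and without the 2 tumours (adjusted p = 0.0478). Itih5, which binds hyaluronan in the matrix, was at 7.77, 7.65, 11.64, 10.85 and 6.80 in 1KI and 5.94, 5.90, 6.16, 5.44 and 6.10 in 3aKO, again highest in replicates 3 and 4. Cplane1, a ciliary protein, was high in other tumours, at 6.68, 11.01, 9.52, 6.86 and 7.54, against 6.00, 6.36, 6.23, 6.21 and 6.55 in 3aKO. Its other probe sets differed by 1.88, 1.41, 0.55, 0.06, 0.04 and -0.06, so only some shared the difference. Nucb2, the precursor of nesfatin, was highest in replicate 4 alone, at 11.13, against 5.71 to 6.13 in 3aKO. Mtmr11, Wfdc15b and Fkbp11 differed by 2.58 ± 0.53, 2.44 ± 0.61 and 2.20 ± 0.71, each with its highest level in replicate 3 or 4. Ttc39a and Tmem184c, of low p, differed by 1.13 ± 0.16 and 1.44 ± 0.20 (adjusted p = 0.0788 for each), with similar levels in all 5 tumours. Tinag, a matrix protein of kidney tubules, was at 5.97, 7.11, 6.11, 3.32 and 6.49 in 1KI and 3.35, 3.55, 3.24, 4.02 and 3.17 in 3aKO, so that 4 tumours were high and replicate 4 was not.

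Across the 63 genes separated and at least 2-fold higher, the median excess over the 3aKO mean was 0.83, 1.01, 2.12, 2.25 and 0.88 in 1KI replicates 1 to 5. Replicates 3 and 4 were the highest pair for 42 of the 63, and 29 of the 63 remained at least 2-fold higher without them. Cdkn1a, Phlda3 and Igf2 had their highest pair among the other tumours.

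**Figure D2:**
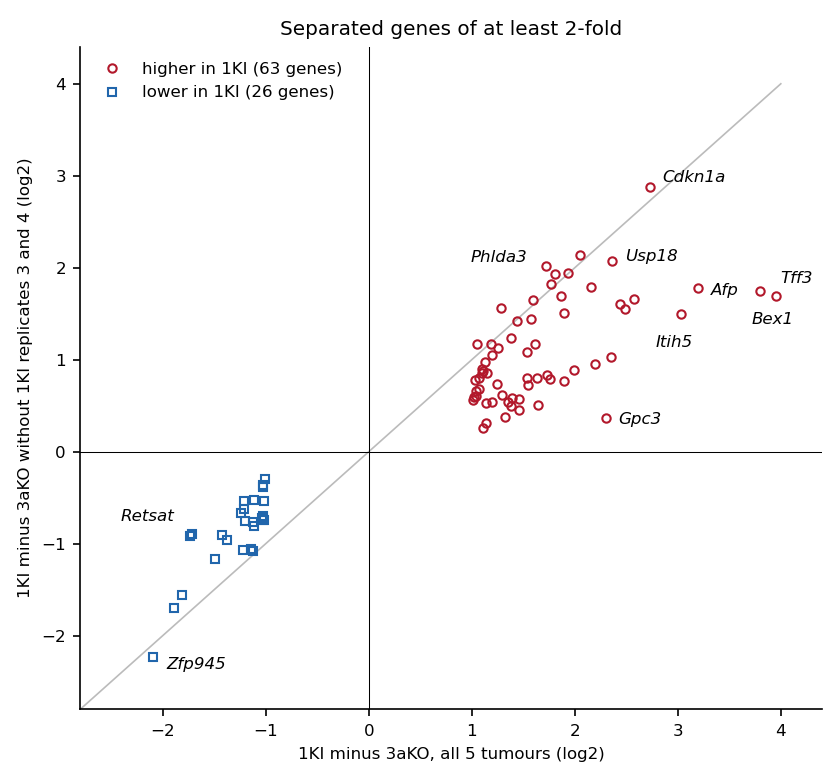
Difference 1KI minus 3aKO (log2) of each gene that is separated and at least 2-fold, with all 5 tumours on the horizontal axis and without 1KI replicates 3 and 4 on the vertical axis; the diagonal marks equal values. Cdkn1a and Phlda3 lie above the diagonal, and Gpc3 and Tff3 lie far from it towards 0.

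The E2F family was read next, since both genotypes alter it. The probe sets need not lie in the altered parts of these genes, so the levels check neither allele. E2f1 was at 6.15, 6.16, 6.47, 5.83 and 6.36 in 1KI tumours and 5.98, 6.14, 5.86, 6.18 and 6.09 in 3aKO livers. The groups overlapped, and the difference of 0.14 ± 0.12 did not pass (adjusted p = 0.596). E2f3 was at 7.14, 7.23, 7.81, 7.60 and 7.28 in 1KI and 6.43, 6.88, 6.69, 6.79 and 6.42 in 3aKO. Every tumour was above every 3aKO liver, by a difference of 0.77 ± 0.15 that passed with all 3 groups (adjusted p = 0.0255) and not with 2 (adjusted p = 0.126). Without replicates 3 and 4 it was 0.57 ± 0.12 (adjusted p = 0.156). The wt livers, at 6.59 to 7.03 with a median of 6.89, lay between, at 0.25 of the way from the 3aKO to the 1KI mean.

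Of the 18 family genes, E2f3 was the only one separated, and the median difference was -0.04, against -0.02 for all genes. The repressor E2f8, which is induced by the activators, was at 6.14, 6.32, 5.27, 5.83 and 7.02 in 1KI and 7.07, 7.24, 7.25, 6.77 and 5.67 in 3aKO, with a difference of -0.69 ± 0.36 (adjusted p = 0.411). Its relative E2f7 differed by -0.47 ± 0.46, and 1 3aKO liver was far above the rest. Among the pocket proteins, Rbl1 (p107) differed by 0.46 ± 0.29, Rbl2 (p130) by -0.47 ± 0.16 and Rb1 by -0.04 ± 0.14. The activator E2f2 differed by 0.18 ± 0.11, the repressors E2f4, E2f5 and E2f6 by -0.02 ± 0.09, -0.11 ± 0.08 and -0.03 ± 0.09, and the DP partners Tfdp1 and Tfdp2 by -0.01 ± 0.09 and -0.26 ± 0.13. Lin9, Lin37, Lin52 and Lin54, the core of the MuvB complex, and its partner Mybl2 differed by 0.07 ± 0.14, -0.01 ± 0.12, -0.14 ± 0.12, -0.09 ± 0.17 and -0.14 ± 0.07. None of these other 17 passed in either fit.

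Genes that E2F proteins drive had mostly higher means in the tumours, with few of them separated. Of 46 genes of DNA replication and G1/S, 33 had a higher mean in 1KI, 2 were separated and higher and 0 passed with all 3 groups. Their median was 0.12, with 0.27 in females alone and -0.02 in males alone. By tumour it was 0.093, -0.184, 0.124, 0.085 and 0.431, against -0.057 to 0.107 in 3aKO livers and -0.287 to 0.075 in wt livers. Tumour replicates 1, 2 and 4 thus lay within the range of the normal livers. The separated members were Cdc6 and Ccne1. Cdc6, which loads the MCM helicase, was at 4.11, 3.51, 4.30, 4.37 and 5.29 in 1KI and 2.85, 3.20, 3.27, 3.11 and 3.23 in 3aKO (difference 1.19 ± 0.26, adjusted p = 0.163). Replicate 5, a tumour outside the pair that stood apart, was highest for Cdc6. Ccne1, cyclin E1, was at 6.69, 6.32, 6.98, 6.84 and 6.83 in 1KI and 6.14, 6.26, 6.23, 6.20 and 5.92 in 3aKO (difference 0.58 ± 0.12, adjusted p = 0.141).

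Of 47 genes of mitosis, 43 had a higher mean in 1KI and 20 had an unadjusted p under 0.05 in that direction, while 1 passed with all 3 groups. The median was 0.39, and 0.21 without replicates 3 and 4. By tumour it was -0.01, 0.20, 0.54, 0.79 and 0.29, lowest in replicate 1 and highest in replicate 4. The survivin gene Birc5 was at 4.75, 5.21, 6.37, 7.88 and 5.28 in 1KI and 4.66, 4.43, 4.44, 4.53 and 4.66 in 3aKO, and the condensin subunit Smc4, the member that passed (adjusted p with all 3 groups = 0.0475), was at 7.86, 7.76, 8.31, 8.31 and 8.34 in 1KI and 7.50, 7.51, 7.56, 7.60 and 7.45 in 3aKO. Cks2, a small subunit of cyclin-dependent kinases, was separated in the lower direction, at 8.77 to 9.43 in 1KI against 9.52 to 9.81 in 3aKO. The inhibitors Cdkn2d (p19) and Cdkn1b (p27) differed by -0.41 ± 0.16 and 0.20 ± 0.09 and were not separated. Uhrf1, which keeps DNA methylation through replication, was at 5.22, 4.67, 6.63, 5.94 and 6.81 in 1KI and 4.52, 4.38, 5.03, 4.65 and 4.53 in 3aKO, with replicates 3 and 5 highest.

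E2F sites were searched as TTTGGCGC, TTTCCCGC and TTTGGCGG on both strands in the same windows. They were found for 1 of the 4 separated genes of the replication and mitosis lists with a promoter in the table (25%) and for 18 of 73 that were not separated (24.7%), against 3.59% of the measured genes and 2.1% of all promoters. The promoters of the separated genes Cdc6 and E2f3 are shown. E2f3 has 2 promoters in the table, and the one printed held the match.
Cdc6 (chr11:98908001-98908150, plus strand): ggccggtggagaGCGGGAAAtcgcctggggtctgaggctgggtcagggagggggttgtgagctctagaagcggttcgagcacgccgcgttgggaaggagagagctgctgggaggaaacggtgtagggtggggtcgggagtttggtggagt
E2f3 (chr13:29986064-29986213, minus strand): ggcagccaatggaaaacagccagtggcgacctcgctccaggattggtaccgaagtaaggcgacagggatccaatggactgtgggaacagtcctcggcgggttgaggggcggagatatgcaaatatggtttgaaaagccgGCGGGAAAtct
Capitals mark the match, which in both is the reverse complement of TTTCCCGC. It starts 138 bases before the start of Cdc6 and 11 bases before that of E2f3.

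Matrix genes and markers of stellate cells, the collagen-forming cells of the liver, mostly had higher means in the tumours. Of 22 stellate and fibrosis markers, 16 had a higher mean in 1KI, 4 were separated and higher and 11 had an unadjusted p under 0.05, though none passed with all 3 groups. Their summed linear level was 12404 to 26059 in 1KI, 7932 to 9975 in 3aKO and 7103 to 9389 in wt, so the tumours did not overlap either normal group. The collagens Col1a1, Col1a2, Col5a2 and Col6a3 were the separated members. Col1a2 was at 8.74, 9.18, 9.77, 10.02 and 8.80 in 1KI and 8.39, 7.79, 8.05, 8.42 and 8.49 in 3aKO (difference 1.07 ± 0.26, and 0.68 ± 0.18 without replicates 3 and 4), and Col1a1, Col5a2 and Col6a3 differed by 1.39 ± 0.46, 1.13 ± 0.34 and 0.66 ± 0.15. In bulk tissue, more cells of a type and more RNA per cell cannot be told apart.

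Of 27 genes of matrix remodelling, 20 had a higher mean in 1KI, with a median of 0.29, and 0.30 without the 2 tumours. Besides Mmp12, the separated members were Ccn2, the connective tissue growth factor, at 8.22, 8.07, 8.66, 8.63 and 8.09 in 1KI and 7.32, 6.43, 7.85, 7.38 and 7.19 in 3aKO, and the protease Adamts1 (difference 0.71 ± 0.20). Among 10 bile duct markers, 8 had a higher mean in 1KI. The tight junction protein Cldn7 was the separated one, at 4.73, 5.09, 6.21, 6.27 and 5.06 in 1KI and 4.65, 4.28, 3.72, 4.25 and 4.21 in 3aKO, and it passed with all 3 groups (adjusted p = 0.0453). The summed bile duct markers were at 670 to 2514 in 1KI and 370 to 982 in 3aKO, an overlap. Krt8 was at 11.26, 11.94, 12.50, 12.46 and 11.68 in 1KI and 10.88, 11.37, 10.62, 10.99 and 10.80 in 3aKO (adjusted p with all 3 groups = 0.0456). Fgfr1, a growth factor receptor, was separated at 6.24, 6.22, 7.37, 8.49 and 6.23 in 1KI and 5.37, 5.93, 5.62, 5.41 and 5.73 in 3aKO, and Klb, the co-receptor of Fgf21 and Fgf15, was lower at 9.06, 8.48, 8.23, 9.20 and 8.63 in 1KI and 9.75, 9.27, 9.64, 9.52 and 9.43 in 3aKO (adjusted p with all 3 groups = 0.0475).

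Decr2, a peroxisomal reductase of polyunsaturated fatty acid breakdown, had a low p among the genes with lower means in the tumours and was at 10.998, 10.559, 10.641, 10.443 and 11.131 in 1KI tumours and 11.693, 11.505, 11.709, 11.534 and 11.734 in 3aKO livers. All 5 tumours were below all 5 livers, by -0.88 ± 0.13 (adjusted p = 0.0788, and 0.0176 with all 3 groups), and by -0.74 ± 0.13 without replicates 3 and 4 (adjusted p = 0.0922). Slc13a2, a dicarboxylate transporter, was at 5.68, 5.64, 5.23, 5.62 and 5.26 in 1KI and 6.45, 6.19, 6.63, 6.10 and 6.46 in 3aKO (difference -0.88 ± 0.13, adjusted p = 0.0788). Slc17a1, a urate and phosphate transporter, was at 8.01, 7.24, 6.88, 7.41 and 7.31 in 1KI and 8.58, 8.27, 8.43, 8.76 and 8.91 in 3aKO and was called lower with all 3 groups (adjusted p = 0.0456). The clone-named gene 1810021B22Rik differed by -0.62 ± 0.08 and was also called lower there (adjusted p = 0.0176).

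Zfp945, a zinc finger gene, had the largest negative difference of the separated genes under the same rule for probe sets. It was at 4.33, 4.10, 6.10, 3.96 and 5.62 in 1KI and 6.78, 6.70, 6.92, 7.00 and 7.16 in 3aKO. Replicates 1, 2 and 4 were lowest, and the difference of -2.09 ± 0.39 passed with all 3 groups (adjusted p = 0.0236) and without replicates 3 and 4 (adjusted p = 0.0478). The other probe sets for Zfp945, of lower mean, did not share it, with differences of -0.17 ± 0.10 and 0.12 ± 0.08. Ephb6, an ephrin receptor without kinase activity, was at 4.09, 3.84, 3.69, 3.58 and 4.40 in 1KI and 5.36, 5.42, 5.81, 7.01 and 5.44 in 3aKO (adjusted p with all 3 groups = 0.0453). Here the wt livers, at 3.94 to 5.78 with a median of 4.43, lay nearer the tumours. Hnf4aos, the antisense transcript of Hnf4a, was at 6.07, 6.45, 5.14, 5.39 and 6.40 in 1KI and 7.03, 7.33, 7.35, 7.10 and 7.54 in 3aKO and passed both with all 3 groups (adjusted p = 0.0475) and without the 2 tumours (adjusted p = 0.0478).

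Retsat, the retinol saturase, showed the pattern of most other members. Its levels were 11.38, 12.10, 9.63, 9.82 and 11.87 in 1KI and 12.54, 12.71, 12.43, 12.82 and 12.89 in 3aKO, with replicates 3 and 4 well below the other tumours. The difference of -1.72 ± 0.46 was -0.90 ± 0.17 without them. Tmtc2, Ankrd33b, Celf2, Macrod1, Nat1, Ttc30b and Khdrbs3 also had their lowest levels in replicates 3 and 4, with differences of -1.74 ± 0.47, -1.43 ± 0.33, -1.24 ± 0.33, -1.21 ± 0.38, -1.21 ± 0.35, -1.12 ± 0.32 and -1.03 ± 0.35. The glucuronosyl-type transferase Ugt3a1, the coenzyme Q kinase Coq8a and the antisense transcript Sox6os differed by -1.50 ± 0.27, -1.12 ± 0.27 and -1.02 ± 0.21. Over the 26 genes separated and at least 2-fold lower, the median shortfall from the 3aKO mean was -0.71, -0.90, -1.93, -2.08 and -0.80 in 1KI replicates 1 to 5, replicates 3 and 4 were the lowest pair for 19, and 7 remained at least 2-fold lower without them.

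**Figure D3:**
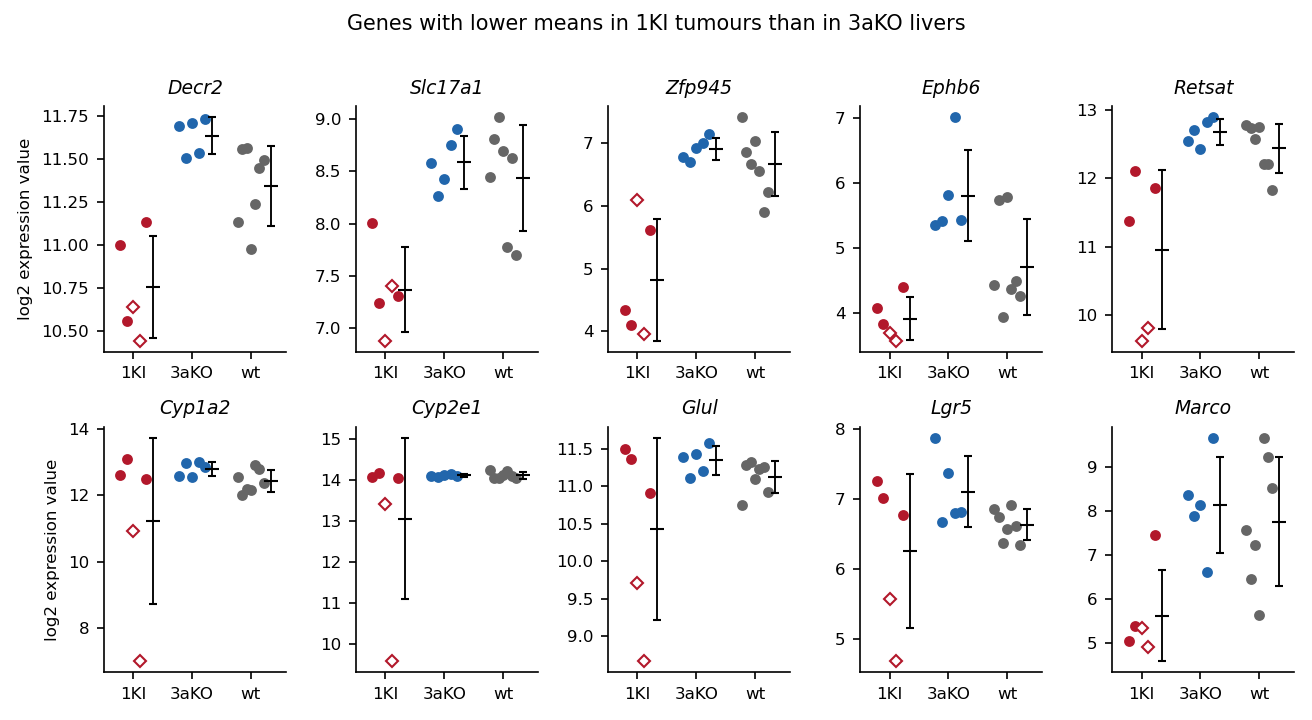
Log2 levels of 10 genes in each array, 1KI tumours (left), 3aKO livers (middle) and wt livers (right); dots are arrays, open diamonds are 1KI replicates 3 and 4, and black bars are mean ± SD. Decr2, Slc17a1 and Zfp945 are low in all 5 tumours, whereas Cyp1a2, Cyp2e1, Glul and Lgr5 are low in the diamonds alone.

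Hepatocyte functions had lower means in the tumours as groups. In amino acid catabolism and the urea cycle, 36 of 38 genes had a lower mean in 1KI, against 54.7% of all genes, 3 were separated and lower, and none passed with all 3 groups. The separated members were Cth, which makes cysteine (difference -1.02 ± 0.23), Gnmt, which consumes excess methyl groups (-0.89 ± 0.36), and Upb1 of pyrimidine breakdown (-0.35 ± 0.14). Gnmt was at 14.18, 13.93, 12.65, 12.20 and 14.09 in 1KI and 14.32, 14.32, 14.24, 14.25 and 14.35 in 3aKO, so 3 tumours lay close to the 3aKO livers. The list median of -0.48 was -0.16 without replicates 3 and 4. By tumour it was -0.11, -0.29, -0.91, -1.05 and -0.06, against -0.09 to 0.08 in 3aKO livers and -0.37 to -0.05 in wt livers. Tumour replicates 1, 2 and 5 thus lay within the range of the normal livers. The list's median difference 3aKO minus wt was 0.18.

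In fatty acid oxidation, 27 of 33 genes had a lower mean in 1KI, 4 were separated and lower, and Decr2 passed with all 3 groups. Eci2, Acadvl and Acaa1a, enzymes of the oxidation spiral, differed by -0.66 ± 0.20, -0.55 ± 0.17 and -0.44 ± 0.12. The list median lay below 0 in every tumour, at -0.33, -0.17, -0.82, -0.64 and -0.16 in replicates 1 to 5. It was -0.44 over all tumours and -0.24 without replicates 3 and 4. The same median was -0.13 in 3aKO replicate 2 and -0.38 in wt replicate 7. Tumour replicates 1, 2 and 5 thus lay within the range of the normal livers. For the respiratory chain 43 of 45 subunits had a lower mean in 1KI and 9 were separated and lower, with a median of -0.18, and -0.08 without replicates 3 and 4. By tumour it was -0.06, -0.11, -0.35, -0.37 and -0.01, and in females alone it was -0.01. In wt livers this median ran from -0.13 to -0.01, so tumour replicates 1, 2 and 5 lay within the range of the normal livers. Sdhb, Ndufs1, Ndufb8 and Cyc1 differed by -0.52 ± 0.21, -0.38 ± 0.14, -0.38 ± 0.12 and -0.36 ± 0.11, and Ndufa1 and Ndufa2 were separated in the higher direction (0.15 ± 0.06 and 0.15 ± 0.06, both chosen after their values were seen).

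Genes of the pericentral zone, which surrounds the central vein and depends on Wnt signalling, differed between the tumours. Of 23, 20 had a lower mean in 1KI and 1, Car14, was separated. The list median by tumour was 0.01, -0.02, -1.28, -2.42 and -0.03, and without replicates 3 and 4 it was -0.01. Cyp2e1, Glul, Cyp1a2 and Lgr5 were chosen with their values in view. Cyp2e1, the ethanol-oxidising P450, was at 14.08, 14.17, 13.42, 9.57 and 14.04 in 1KI and 14.11, 14.09, 14.12, 14.16 and 14.09 in 3aKO. Glul, glutamine synthetase of the innermost pericentral cells, was at 11.50, 11.36, 9.71, 8.67 and 10.92 in 1KI and 11.39, 11.11, 11.43, 11.20 and 11.58 in 3aKO. Cyp1a2 was at 12.62, 13.07, 10.92, 7.01 and 12.50 in 1KI and 12.59, 12.97, 12.53, 13.00 and 12.83 in 3aKO. The receptor Lgr5 was at 7.27, 7.03, 5.57, 4.68 and 6.77 in 1KI and 7.88, 6.67, 7.38, 6.80 and 6.82 in 3aKO. Each was low in replicates 3 and 4, lowest in 4, and within or near the 3aKO range in the other 3 tumours. None of the 4 passed with all 3 groups.

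The medians of the xenobiotic P450 and bile acid lists were near 0 without the same 2 tumours. The P450 median was -0.85 with all tumours and -0.06 without replicates 3 and 4, and the bile acid median was -0.53 and -0.07. Slc10a1, the bile acid importer, was separated, at 12.85, 12.34, 11.67, 10.23 and 12.64 in 1KI and 12.93, 12.88, 12.98, 13.01 and 13.07 in 3aKO. Cyp3a13 was separated as well, with the largest gap to 2 of the 3aKO livers, at 8.90, 8.86, 8.37, 8.94 and 8.82 in 1KI and 9.03, 9.24, 9.20, 10.72 and 11.43 in 3aKO. The gluconeogenic enzyme G6pc was at 8.99, 11.21, 7.35, 7.07 and 9.03 in 1KI and 11.38, 10.66, 11.07, 11.35 and 10.16 in 3aKO, with an overlap through replicate 2. General hepatocyte identity shifted less. Of 29 identity genes 13 had a higher mean and 16 a lower one, with a median of -0.04. The albumin gene Alb was at 14.82 to 14.94 in 1KI and 14.90 to 14.96 in 3aKO. The urea cycle enzyme Cps1 was at 13.15 to 13.88 in 1KI and 13.84 to 13.93 in 3aKO, so Alb and Cps1 were at high levels in every tumour. Both were chosen after their values were seen.

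Genes of cholesterol synthesis and of endoplasmic reticulum stress mostly had higher means in the tumours. In cholesterol synthesis 19 of 20 genes had a higher mean in 1KI, with a median of 0.51 that was 0.35 without replicates 3 and 4. By tumour it was 0.84, -0.16, 0.82, 0.69 and 0.36, so replicate 2 did not share it. The same median ran from -0.65 to 0.42 in 3aKO livers and from -1.28 to 0.68 in wt livers. Tumour replicates 2 and 5 thus lay within the range of the normal livers, and replicate 4 was level with the highest wt liver. Cyp51, the lanosterol demethylase, was the separated member, at 10.77, 10.18, 11.01, 10.90 and 10.39 in 1KI and 9.03, 9.93, 10.01, 9.60 and 9.80 in 3aKO (adjusted p = 0.146). Of 30 genes of endoplasmic reticulum stress, 28 had a higher mean in 1KI and 4 were separated. Besides Atf3, these were the chaperones Dnajc3, Calr and Canx, with differences of 0.57 ± 0.18, 0.24 ± 0.08 and 0.16 ± 0.07. The list median by tumour was 0.09, 0.44, 0.28, 0.80 and -0.03, highest in replicate 4 and below 0 in replicate 5. Over all tumours it was 0.33, and 0.19 without replicates 3 and 4. In 3aKO livers this median ran from -0.19 to 0.12, and in wt livers from -0.09 to 0.31. Tumour replicates 1, 3 and 5 thus lay within the range of the normal livers.

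In iron handling, 11 of 17 genes had a lower mean in 1KI, against 54.7% of all genes, and 6 had a higher one. The list median was -0.13, and 0.06 without replicates 3 and 4. While 1 member was separated and higher, 2 were separated and lower. The lower ones were the sensor Tfr2 and the protease Tmprss6, which restrains hepcidin (-0.59 ± 0.17 and -0.37 ± 0.11). Both had their lowest levels in replicates 3 and 4. The prolyl hydroxylase Egln3 was at 7.66, 7.21, 6.28, 7.29 and 7.84 in 1KI and 8.85, 8.20, 8.49, 8.08 and 7.85 in 3aKO. The NRF2 list showed no separated member. Its regulator Nfe2l2 was at 10.59, 11.14, 11.11, 10.77 and 10.71 in 1KI and 9.99, 9.87, 9.83, 10.73 and 10.34 in 3aKO, and passed against wt (difference 0.75 ± 0.12, adjusted p = 0.0334) but not against 3aKO (adjusted p = 0.202). The female-biased liver list had a median of -0.85, and -0.12 with sex as a covariate, beside the unequal numbers of females.

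**Figure D4:**
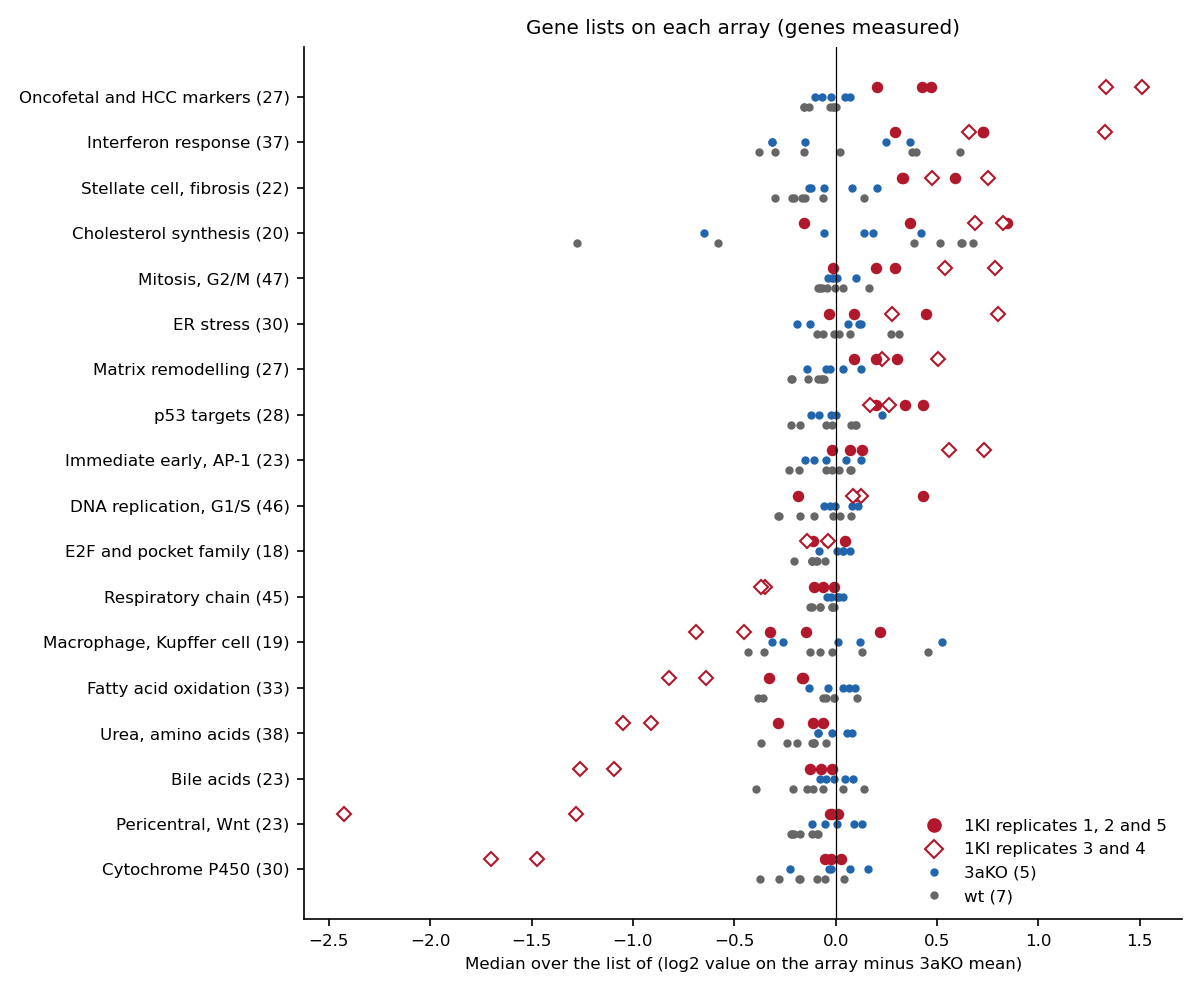
Median over each gene list of the log2 value on an array minus the 3aKO mean, with 1KI tumours above 3aKO livers and wt livers in each row; filled red dots are 1KI replicates 1, 2 and 5, open diamonds are 1KI replicates 3 and 4, and the number of genes measured is in brackets. The interferon list lies above 0 and the fatty acid oxidation list below 0 in all 5 tumours, though some tumours lie within the range of the normal livers for both. The pericentral, P450 and bile acid lists lie near 0 in replicates 1, 2 and 5.

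Markers of other cell types were higher or lower by type. Of the macrophage list 14 of 19 had a lower mean in 1KI. Marco, a scavenger receptor of resident macrophages that was chosen after its values were seen, was at 5.04, 5.38, 5.35, 4.91 and 7.45 in 1KI and 8.38, 7.90, 8.14, 6.62 and 9.65 in 3aKO. The groups overlapped through replicate 5 of 1KI and replicate 4 of 3aKO, and the difference of -2.51 ± 0.58 did not pass (adjusted p = 0.179). Trem2, found on macrophages of diseased liver, was separated and higher by 0.30 ± 0.06 (adjusted p = 0.144). Ighm, the heavy chain of IgM, was at 8.14, 7.72, 7.52, 7.37 and 8.38 in 1KI and 10.02, 8.45, 10.74, 9.79 and 9.21 in 3aKO, and Il2rb of T and NK cells at 5.04, 5.22, 5.16, 5.14 and 5.25 in 1KI and 5.80, 5.50, 5.85, 5.43 and 6.07 in 3aKO. Both were separated and lower without passing (adjusted p = 0.141 and 0.141). Of the 11 probe sets for Ighm, 2 were lower by more than 1 and the other 9 differed by -0.23 to 0.22. Of 10 B and plasma cell markers 3 had a higher mean in 1KI, the median was -0.08, and their summed level was 6509 to 8924 in 1KI and 5708 to 7872 in 3aKO, an overlap. The neutrophil granule gene Ngp differed by -0.47 ± 0.15. Of 21 endothelial markers 15 had a higher mean in 1KI and none was separated, and Plvap and Tie1 differed by 0.43 ± 0.19 and 0.39 ± 0.17. The part of these cells in the other results was not tested.

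The wt livers showed on which side the separated genes were placed. The position of wt runs from 0 at the 3aKO mean to 1 at the 1KI mean. For the 63 genes separated and at least 2-fold higher, wt lay beyond 3aKO for 24 (38.1%), between but nearer 3aKO for 39 (61.9%) and nearer or beyond 1KI for 0, with a median of 0.0443. For the 26 lower genes wt lay beyond 3aKO for 2 (7.69%), nearer 3aKO for 21 (80.8%) and nearer 1KI for 3 (11.5%), with a median of 0.155. Over all 18193 genes the shares were 42.4% beyond 3aKO, 23.8% nearer 3aKO, 12.5% nearer 1KI and 21.4% beyond 1KI. The same 3aKO arrays choose the genes and enter the position, so these shares are a description.

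Against wt itself, 38 genes (0.209%) were called higher in 1KI and 6 (0.0330%) lower, and limma called 0 genes (0%) higher and 0 (0%) lower in 3aKO than in wt, where 659 genes (3.62%) and 698 genes (3.84%) had an unadjusted p under 0.05. Of the 63 higher genes 10 were called against wt, and for 27 all 7 wt livers lay below all 5 tumours. Of the 26 lower genes 1 was called against wt, and for 5 all wt livers lay above all tumours. The comparisons with 3aKO and with wt share the 1KI arrays. Bex1, Itih5, Usp18, Oas1a and Anxa2 were the largest of those with wt beyond 3aKO, at -0.06, -0.21, -0.07, -0.02 and -0.03. Itih5, for example, averaged 8.94 ± 2.15 in 1KI, 5.91 ± 0.28 in 3aKO and 5.26 ± 0.50 in wt (SD).

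The separated genes with wt nearer 1KI were mostly lower in 1KI than in 3aKO. Tmtc2, with a position of 0.65, was at 5.91, 5.62, 3.94, 3.87 and 6.34 in 1KI, 7.38, 6.78, 6.52, 7.04 and 6.65 in 3aKO and 4.77 to 6.33 with a median of 5.81 in wt, so every 3aKO liver was above every wt liver. The difference 3aKO minus wt was 1.14 ± 0.25 and did not pass (adjusted p = 0.641). Ephb6, Egln3, H2bc21 and Slc35e2 had positions of 0.58, 0.89, 0.53 and 0.57. For Slc35e2, a predicted sugar transporter, 3aKO averaged 10.74 ± 0.29 beside 9.86 ± 0.67 in 1KI and 10.24 ± 0.12 in wt.

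In the last class, wt lay beyond 1KI. The acute phase proteins Serpina3n and Hp were higher in 1KI than in 3aKO and higher still in wt. Serpina3n was at 11.56, 12.11, 12.25, 11.60 and 11.67 in 1KI, 11.49, 11.18, 11.05, 11.02 and 11.28 in 3aKO and 11.18 to 12.86 with a median of 12.08 in wt (position 1.23). Hp, haptoglobin, was at 14.18, 14.30, 14.52, 14.56 and 14.19 in 1KI, 13.98, 13.93, 14.09, 14.03 and 14.12 in 3aKO and 14.11 to 14.80 with a median of 14.38 in wt. For hemopexin, Hpx, wt lay nearer 1KI and not beyond it, with a position of 0.74. Of the 27 acute phase genes wt lay beyond 1KI for 13, and the median 3aKO minus wt was -0.32, although no gene passed between those groups. Cks2, Slc22a15 and the kinase subunit Csnk2a1 had positions of 1.05, 1.03 and 1.22. In these genes the 3aKO livers, rather than the tumours, were farthest from wt.

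**Figure D5:**
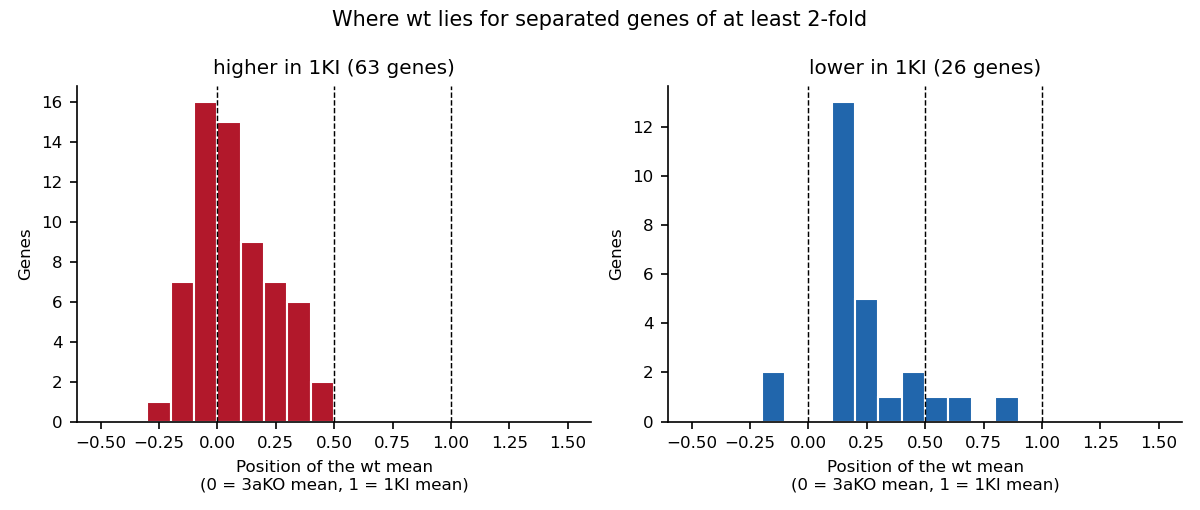
Number of genes by the position of the wt mean on the scale where 0 is the 3aKO mean and 1 is the 1KI mean, for the genes separated and at least 2-fold higher (left) or lower (right) in 1KI. Of the 63 higher genes 24 lie below 0 and 39 between 0 and 0.5, and of the 26 lower genes 3 lie between 0.5 and 1.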

How the data were processed

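RNA of 17 mouse liver samples was measured on Affymetrix arrays: 1KI (n = 5), 3aKO (n = 5) and wt (n = 7). The authors deposited log2 values for each probe set, from 2 separate normalizations. Per the labels, the columns used here belong to normalization 1, and the method is not given in the sources used here. The 16 columns of normalization 2 were not used. Array medians were 5.48 to 5.53, and the number of arrays limits the precision.

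Of 45101 probe sets, 34945 carried 1 gene symbol in the platform annotation. The probe set with the highest mean stood for each of 18193 genes, and a choice was made for 9010. The 2 groups were fitted with limma 3.58.1 (lmFit and eBayes, two-sided) in R 4.3.3, without a replicate block, after a test of the code on simulated data. Promoters came from the RefSeq table (GRCm38.p6). Tables and figures used Python 3.11.15, pandas 2.3.3, numpy 2.4.6 and matplotlib 3.10.9.

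The 44 gene lists hold 1042 genes, 949 measured, and the lists, tests and genes were chosen with earlier results of these data known. Named genes are the 10 of lowest p, the 20 largest separated differences each way without predicted genes, the E2F family, up to 4 separated members per list or the 2 of lowest p, and 5 per class of wt position. Sex was read from Xist (log2 above 10) and Y-linked genes (above 5). Replicate numbers did not pair the samples: the correlation of same-numbered deviations was -0.08 to 0.44. Alternatives were other normalizations, filters, probe-set rules, fits, covariates and subsets of arrays.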

Additional observations from a re-analysis of the deposited data

Results flagged for a closer look

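A single array stood far from the rest of its group in 31 of 408 gene groups examined, where the gap from the highest or lowest array to its nearest neighbour, divided by the range of the group, passed Dixon's 95% limit. Chance alone gives about 1 in 20 groups. The log2 level of the array and the gap as a share of the range are given for each gene. In 1KI replicate 3 it was Cyp3a13 (8.37, 0.799 of the range, lowest). In 1KI replicate 4 these were Atf3 (10.50, 0.808 of the range, highest), Car14 (6.72, 0.729 of the range, lowest), Cyp2e1 (9.57, 0.838 of the range, lowest), Ddx58 (9.33, 0.739 of the range, highest) and Tie1 (7.51, 0.721 of the range, highest). In 1KI replicate 5 it was Marco (7.45, 0.813 of the range, highest). In 3aKO replicate 1 these were Bst2 (9.88, 0.71 of the range, lowest) and Rb1 (6.10, 0.812 of the range, lowest). In 3aKO replicate 2 these were Acadvl (12.32, 0.788 of the range, lowest) and Ankrd33b (8.15, 0.83 of the range, highest). In 3aKO replicate 3 these were Ngp (5.27, 0.74 of the range, highest) and Rbl2 (8.73, 0.796 of the range, lowest). In 3aKO replicate 4 these were Eci2 (11.60, 0.763 of the range, highest) and Ephb6 (7.01, 0.726 of the range, highest). In 3aKO replicate 5 these were Ccng1 (9.53, 0.807 of the range, highest) and Dnajc3 (10.27, 0.747 of the range, lowest). In wt replicate 1 these were Cplane1 (8.62, 0.701 of the range, highest) and Rbl2 (9.31, 0.678 of the range, highest). In wt replicate 4 it was Dnajc3 (11.25, 0.595 of the range, highest). In wt replicate 5 it was E2f7 (7.20, 0.682 of the range, highest). In wt replicate 6 these were Alb (15.00, 0.629 of the range, highest), Col5a2 (8.78, 0.77 of the range, highest), Ifi27l2a (7.83, 0.664 of the range, highest) and Oasl1 (8.07, 0.672 of the range, highest). In wt replicate 7 these were Col1a1 (6.45, 0.651 of the range, highest), Egln3 (5.75, 0.63 of the range, lowest), Mybl2 (5.14, 0.657 of the range, highest), Tff3 (12.12, 0.917 of the range, highest), Ugt3a1 (8.86, 0.591 of the range, lowest) and Wfdc15b (8.67, 0.658 of the range, highest). The test of a difference of the 1KI minus 3aKO effect between males and females called 0 genes with limma, and 976 had an unadjusted p under 0.05.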

How the results depend on the processing

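The genes called were few under every setting and their number moved with it. Against 0 higher and 0 lower in the fit on the 2 groups, calls numbered 1 higher with quantile normalization, 1 higher without the 40% of genes of lowest mean, 1 higher with eBayes trend and robust, 2 higher and 1 lower when every probe set was tested, 37 higher and 20 lower with all 3 groups, 10 higher and 5 lower with array weights, 2 higher and 1 lower with sex as a covariate, 20 higher and 3 lower without 1KI replicates 3 and 4, and 6 higher in females alone. Leaving out 1 array gave 0 to 5 higher (5 without 1KI replicate 1, 3 without 1KI replicate 2, 1 without 1KI replicate 4) and 0 to 1 lower. With the replicate number as a block, 0 genes were called, with a smallest adjusted p of 0.0704, and 1124 higher and 1358 lower genes had an unadjusted p under 0.05. Genes separated and at least 2-fold numbered 63 higher and 26 lower with all arrays. When every probe set was tested there were 97 higher, in males alone 360 higher and 191 lower, in females alone 41 lower, and without 1KI replicates 3 and 4 there were 8 lower. Without 1 array the higher count was 52 to 109 (106 and 109 without 1KI replicates 2 and 5) and the lower count was 15 to 49, moving by over 1.5 times without any single 1KI array and, to 40, without 3aKO replicate 2. Smaller groups separate more easily by their construction. Of 136 genes named, 124 kept the sign of the difference under all alternatives and 38 passed under at least 1. The sign turned for these, none of which passed, and the cause was not tested. Cdkn1b was at -0.0013 with the mean of its probe sets. E2f1 was at -0.0076 in males only. E2f4 was at 0.0137 in males only and -0.073 to 0.0203 with 1 array left out. E2f6 was at 0.0363 with array weights, 0.0145 with the actin ratio as a covariate, 0.0534 without 1KI replicates 3 and 4, 0.119 in females only and -0.0865 to 0.0348 with 1 array left out. E2f7 was at 0.0829 in males only. Lin37 was at 0.0109 without 1KI replicates 3 and 4 and -0.0868 to 0.0542 with 1 array left out. Lin52 was at 0.032 without 1KI replicates 3 and 4 and 0.0294 in females only. Lin54 was at 0.0581 with the mean of its probe sets, 0.0128 with the actin ratio as a covariate, 0.255 in females only and -0.216 to 0.0002 with 1 array left out. Lin9 was at -0.0001 with the actin ratio as a covariate, -0.0154 in males only and -0.0302 to 0.144 with 1 array left out. Rb1 was at 0.0279 with the mean of its probe sets, 0.0875 with the actin ratio as a covariate, 0.0031 without 1KI replicates 3 and 4 and -0.151 to 0.0181 with 1 array left out. Tfdp1 was at 0.05 in females only and -0.0502 to 0.029 with 1 array left out. Tfdp2 was at 0.0617 in females only. Of 1012 list medians under alternatives, 25 moved by more than the spread between tumours. That spread includes replicates 3 and 4, so it is wide for the lists that rest on them. The P450 median, -0.85 with all tumours and -0.06 without these 2, stayed inside it. The count therefore cannot show whether such lists hold without them.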
